A study of Mus musculus with 24 samples.

Results

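The 33 genes described here mark the walls of brain blood vessels: endothelial cells, which line the vessels, and mural cells, which wrap them (pericytes on capillaries, smooth muscle on larger vessels). They were chosen by name, and 33 of the 33 were among the 24062 genes counted. Brain tissue from mouse pups at postnatal day 9, with the cortex removed and the region just behind the thalamus kept, was used to compare Celf6 knockout (KO) animals with wild-type (WT) animals. CELF6 is an RNA-binding protein. Each brain gave total RNA, called input, and RNA pulled down on tagged ribosomes by translating ribosome affinity purification (TRAP) with an allele that tags ribosomes in serotonin cells, which both genotypes carried.

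The groups were KO TRAP (Celf6 knockout, ribosome-bound RNA of serotonin cells), WT TRAP (wild type, the same RNA), KO input (Celf6 knockout, total RNA) and WT input (wild type, total RNA). All were of postnatal day 9, and their strain and sex are not given in the labels. Libraries 1 to 3 of each group came from sequencing run 1 and libraries 4 and 5 from run 2. The RNA was amplified before library preparation. The libraries WT input 2 and WT input 3 were no further apart than repeat runs of 1 library (chi-square per gene 1.365, against 1.387 to 2.669 for 4 repeat-run pairs and 26.186 to 95.356 for 35 other pairs), so they were summed as WT input 2/3 and counted as 1 sample. This left 5 KO TRAP, 5 WT TRAP, 5 KO input and 3 WT input samples of 3390423 to 11205985 counts. KO TRAP 1 and WT input 5 each held Xist and Y-linked RNA together, and results that rest on them are given without them where they changed. Celf6 averaged 51.3 ± 38.1 CPM (counts scaled to library size, with TMM factors) in KO TRAP and 142 ± 41.5 CPM in WT TRAP (SD, n = 5 each), with ranges of 21.4 to 115 and 85.3 to 188 CPM. In KO input it averaged 15.2 ± 6.37 CPM (n = 5) and in WT input 51.0 ± 47.2 CPM (n = 3). The genotypes overlapped in both kinds of RNA, and RNA of the gene was still counted in KO libraries.

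Brain endothelium forms the blood-brain barrier: tight junctions close the gaps between cells, transporters carry nutrients in and drugs out, and pericytes keep this state. Vessel growth is driven by vascular endothelial growth factor (VEGF) acting on its receptors, while angiopoietins acting on Tie receptors steady the wall. In the young brain vessels are still growing. Most of these genes are known as markers of cells other than the serotonin neurons whose ribosomes were tagged.

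The gene Egfl7 encodes a protein that endothelial cells secrete, and it had the highest log2 fold change of TRAP over input among the 32 of these genes that were tested. Egfl7 lies at chr2:26581056-26592682 on the plus strand (mm10) and shares no exonic bases with another gene. An intron of it holds the microRNA miR-126, an endothelial microRNA, at chr2:26591402-26591423 (mature 3p strand, RefSeq, GRCm38.p6). Its mature sequence is shown because it is made from the same transcript, with the seed, bases 2 to 8, in capitals.
mmu-miR-126a-3p: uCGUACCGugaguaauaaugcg
Mir126 had 4 counts in all, in 3 of 18 libraries, so the microRNA gene itself could not be measured in these libraries.

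Most vascular transcripts were rare in this tissue. In the 8 input samples the order per kilobase of exon began with Bsg, which encodes basigin, a glycoprotein that accompanies lactate transporters and is made by neurons and glia as well, at 217 ± 102 CPM per kb (SD, n = 8). Bsg was the 1 gene whose range lay wholly above that of the next. Slc2a1, the barrier glucose transporter gene, followed at 14.6 ± 8.93 CPM per kb. Rgs5, a regulator of G-protein signalling of pericytes, came next at 13.4 ± 4.95 CPM per kb, with a range that overlapped that of Slc2a1. Then came Vtn, which encodes vitronectin (6.84 ± 6.63 CPM per kb), Itm2a, a membrane protein gene of brain endothelium (6.63 ± 3.56), Pltp, a phospholipid transfer protein gene (5.66 ± 5.19), Ets1, an endothelial transcription factor gene that lymphocytes also use (3.43 ± 2.89), and the smooth muscle actin gene Acta2 (3.15 ± 3.05). From Slc2a1 downward each gene overlapped its next neighbour in range. Of the exonic bases of Pltp 27.41% also belong to another gene, so its counts are uncertain.

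Several defining genes were not seen in every library. Anpep, a pericyte aminopeptidase gene, was at 0 in 9 of 18 libraries, the Tie receptor gene Tie1 in 8, the surface protein gene Ly6a in 8, the endothelial transcription factor gene Sox17 in 7, and Ly6c1 and the smooth muscle myosin gene Myh11 in 6 each. Tagln, Abcb1a, the gene of a drug-exporting pump, and Vwf, the von Willebrand factor gene, were at 0 in 5 each. In single libraries a count of 0 allows up to 0.252 to 0.904 CPM, taken as 3 counts, and covers counting error only. Abcb1a, Acta2 and Ly6c1 have related genes (Abcb1b, Actg2 and Ly6c2), so their counts are uncertain where reads could not be told apart. How alike these sequences are was not measured.

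**Figure D1:**
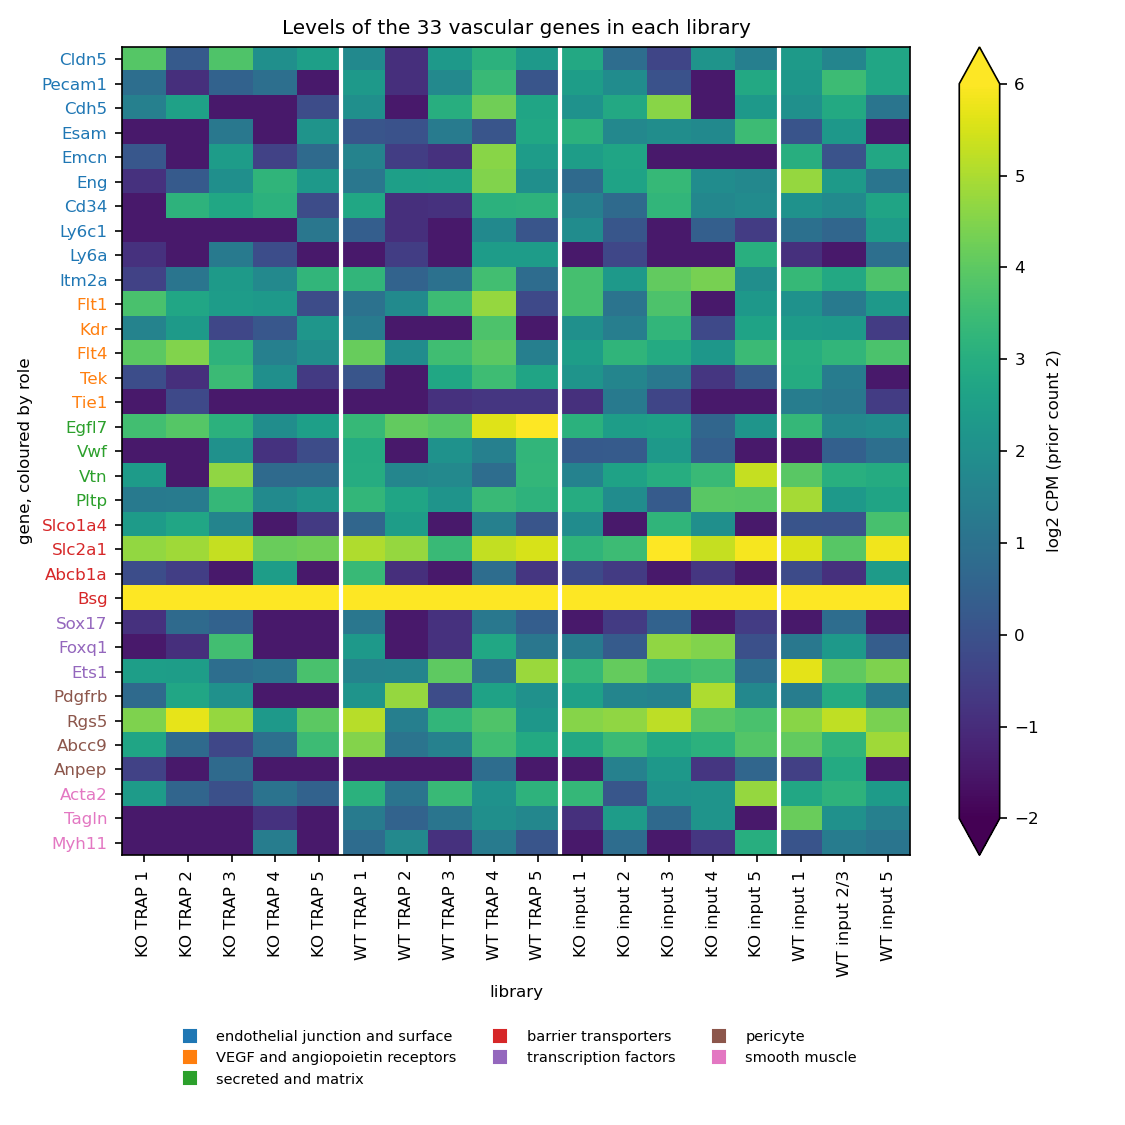
Level of each of the 33 vascular genes (rows, names coloured by role) in each library (columns), as log2 CPM with a prior count of 2, with white lines between KO TRAP, WT TRAP, KO input and WT input. Bsg is bright in all 18 libraries, Tagln is dark in the 5 KO TRAP libraries, and WT TRAP 4 holds the highest value of its group for 18 of the 33 genes.

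The spread between libraries was large, and repeat sequencing gave a much smaller one. Between 2 sequencing runs of the same library the 33 genes differed by a median of 0.216 to 0.316 on the log2 scale (4 pairs), with 1 or 2 genes beyond 2-fold. Between replicates of 1 group the median was 0.611 to 2.252 (35 pairs), with 14 to 25 genes beyond 2-fold. In KO input 3, for example, the counts of Cdh5, the VE-cadherin gene that holds endothelial cells together, were 111 and 111 in the repeat runs, whereas KO input 4 held 0. In the fit of TRAP against input the median biological coefficient of variation of the 32 genes tested was 1.18. The median dispersion, its square, was 1.392, against 1.298 for the trend over all genes at the same levels. Of the 32 genes 18 lay above that trend, so the spread was near that of other genes this rare. Repeat runs share 1 amplified library, so differences between pups and those of amplification or library preparation cannot be told apart. The p-values measure the spread between these libraries, each from the tissue of a pup according to the study design.

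**Figure D2:**
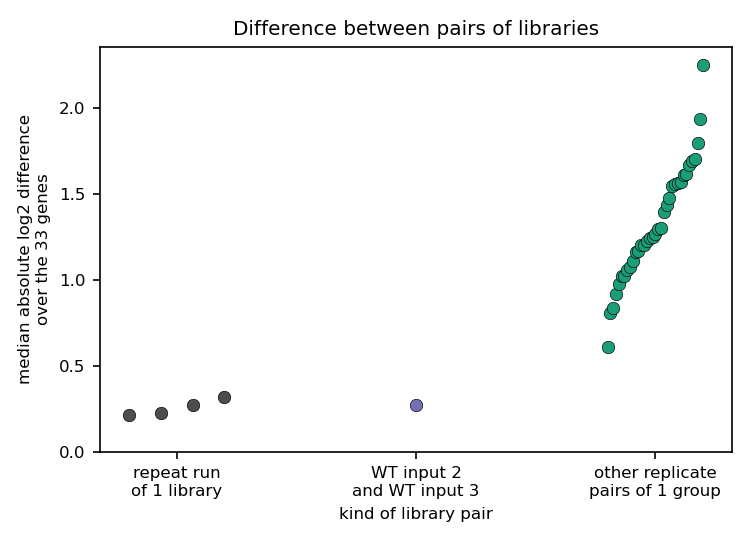
Median absolute log2 difference over the 33 genes (vertical axis) for pairs of libraries of 3 kinds (horizontal axis), 1 point per pair. The 4 repeat runs and the pair of WT input 2 and WT input 3 (0.272) lie below 0.32, and the 35 other replicate pairs lie at 0.611 or above.

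TRAP was set against input to ask how much vascular RNA the pull-down carried. The pull-down held the RNA of serotonin neurons: 8 of 8 of their genes rose, with a median log2 fold change of 4.96. The vascular genes had a median of −0.75, with 23 of the 32 tested below 0, against 0.02 for all 14261 genes tested, of which 48.4% lay below 0. By edgeR's quasi-likelihood test with Benjamini-Hochberg adjustment 1 of the 32 fell (Tagln) and 0 rose, whereas 4.72% of all genes changed, 2.31% down and 2.41% up. DESeq2 called 2 of the 33, Tagln and Egfl7, and 9.46% of all genes. At an unadjusted p under 0.05 there were 4 of 32 vascular genes, against 19.0% of all genes. All 32 overlapped between TRAP and input, while 0.75% of all genes did not.

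All 7 mural genes, 4 of pericytes and 3 of smooth muscle, had negative values, and 1 passed the test. Tagln, which encodes transgelin, an actin-binding protein of smooth muscle, had 0 to 3.59 CPM in the 10 TRAP libraries with a median of 0.647, against 0 to 17.8 CPM with a median of 3.1 in the 8 input samples. The groups overlapped, and 4 TRAP libraries but 1 input sample were at 0. The log2 fold change was −3.58 ± 1.04 (SE; edgeR, adjusted p = 0.0451). This call was weak. DESeq2 kept it (adjusted p = 0.00443), as did edgeR with WT input 2 and 3 kept apart (adjusted p = 0.0297). It was also kept by edgeR without the filter on low counts (adjusted p = 0.0455) and without the run covariate (adjusted p = 0.04). With RLE in place of TMM factors the edgeR adjusted p was 0.0443. In all, the call was kept in 5 of 10 alternative fits, leaving out 1 library at a time aside. It was lost when each brain, given by genotype and replicate number with WT 2 and WT 3 taken as 1, was made a block (−3.26, edgeR adjusted p = 0.135), in the WT libraries alone (−1.85, edgeR adjusted p = 0.56) and without the 2 libraries with Xist and Y-linked RNA (−3.87, edgeR adjusted p = 0.0805). Leaving out 1 library at a time kept the call without KO TRAP 4, KO input 1 or KO input 5 and lost it for each of the other 15, with an edgeR adjusted p of 0.171 at most, without WT input 1, the highest sample. An exact two-sided permutation test of mean log2 CPM over 43758 splits gave p = 0.102, where the smallest possible is 4.57e-05.

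The other mural genes did not pass. Abcc9, which encodes a regulatory subunit of a potassium channel of pericytes, had 0.45 to 22.3 CPM in TRAP with a median of 4.33, against 6.75 to 28.9 CPM with a median of 9.79 in input. Of the 10 TRAP libraries 6 lay below every input sample, and the log2 fold change was −1.12 ± 0.61 (edgeR, adjusted p = 0.327). Rgs5 differed by −0.53 ± 0.44, Pdgfrb, the receptor through which platelet-derived growth factor recruits pericytes, by −0.73 ± 0.93, Acta2 by −1.11 ± 0.69, Myh11 by −1.21 ± 1.12 and Anpep by −2.25 ± 1.44 on the log2 scale. Summed over 8 mural markers (these 7 and Vtn) the level was 42.4 ± 19.5 CPM in TRAP (SD, n = 10) and 72.2 ± 18.1 CPM in input (SD, n = 8), with ranges of 11.7 to 80.8 and 47.9 to 104.

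Among the endothelial genes Egfl7 had 3.39 to 62.5 CPM in TRAP with a median of 13.0, against 1.2 to 9.61 CPM with a median of 4.61 in input. Of the 10 TRAP libraries 7 lay above every input sample, and the 2 highest were WT TRAP 5 (62.5 CPM) and WT TRAP 4 (48.1 CPM). The log2 fold change was 1.73 ± 0.56 (edgeR, adjusted p = 0.0741), so Egfl7 missed the threshold. It passed by DESeq2 (1.71, adjusted p = 0.00883), and by edgeR with WT input 2 and 3 kept apart (adjusted p = 0.0358). These were 2 of 11 alternative fits, leaving out 1 library at a time aside. It did not pass without the 2 libraries with Xist and Y-linked RNA (edgeR, adjusted p = 0.25). With each brain as a block it did not pass either (edgeR, adjusted p = 0.163). Of 18 fits with 1 library left out 1 passed, without WT TRAP 1 (edgeR, adjusted p = 0.0461). The highest edgeR adjusted p among these 18 was 0.217, without WT input 5. In the KO libraries alone the log2 fold change of Egfl7 was 0.79 and in the WT libraries alone 1.92 (edgeR, adjusted p = 0.751 and 0.228). The exact two-sided permutation test of its mean log2 CPM gave p = 0.00539. This p is not adjusted for the choice of Egfl7 from the same libraries, so it is a description and no added support. Within run 1 mean log2 CPM differed by 1.04, and within run 2 by 2.36.

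Itm2a had 0.374 to 11.5 CPM in TRAP with a median of 2.41, against 3.53 to 20.1 CPM with a median of 11 in input. Of the 10 TRAP libraries 6 lay below every input sample, and the log2 fold change was −1.38 ± 0.66 (edgeR, adjusted p = 0.254). The other 9 junction and surface genes had log2 fold changes of −2.28 (Ly6c1) to 1.09 (Ly6a). Among them Pecam1, an adhesion molecule gene of the endothelial border, stood at −1.44 ± 0.93, Cdh5 at −0.40 ± 1.00 and Cldn5, the main claudin gene of the barrier, at 0.59 ± 0.77. Emcn, Eng, Cd34 and Esam lay between −1.31 (Esam) and 0.16 (Cd34). None of these 10 genes passed the edgeR test.

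The 5 VEGF and angiopoietin receptor genes had a median of 0.17. Tek, the angiopoietin receptor gene, and Flt1, a VEGF receptor gene whose product traps the ligand, had 0.95 ± 1.17 and 0.63 ± 0.83, Flt4, another VEGF receptor gene, had 0.17 ± 0.58 and Kdr, the main signalling receptor gene for VEGF, had −0.60 ± 1.16. Tie1 had −2.27 ± 1.34 at very low levels, with 6 counts in 10 TRAP libraries and 54 in 8 input samples. The secreted genes other than Egfl7 had 0.87 ± 1.19 (Vwf), −0.87 ± 0.61 (Pltp) and −1.01 ± 0.78 (Vtn). Among transporters Slc2a1 had −0.39 ± 0.40 and Bsg −0.14 ± 0.27, the smallest errors of the 32. Slco1a4, an organic anion transporter gene, had −0.99 ± 1.20 and Abcb1a 1.47 ± 1.27. The transcription factor gene Ets1 had 1.5 to 27.3 CPM in TRAP with a median of 3.88, against 1.47 to 50.5 CPM with a median of 14.1 in input. The groups overlapped, and the log2 fold change was −1.34 ± 0.64 (edgeR, adjusted p = 0.25). Foxq1, a forkhead factor gene enriched in brain endothelium, had −1.0 ± 1.10. Sox17 had 37 counts in TRAP and 25 in input and did not pass the filter on low counts.

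**Figure D3:**
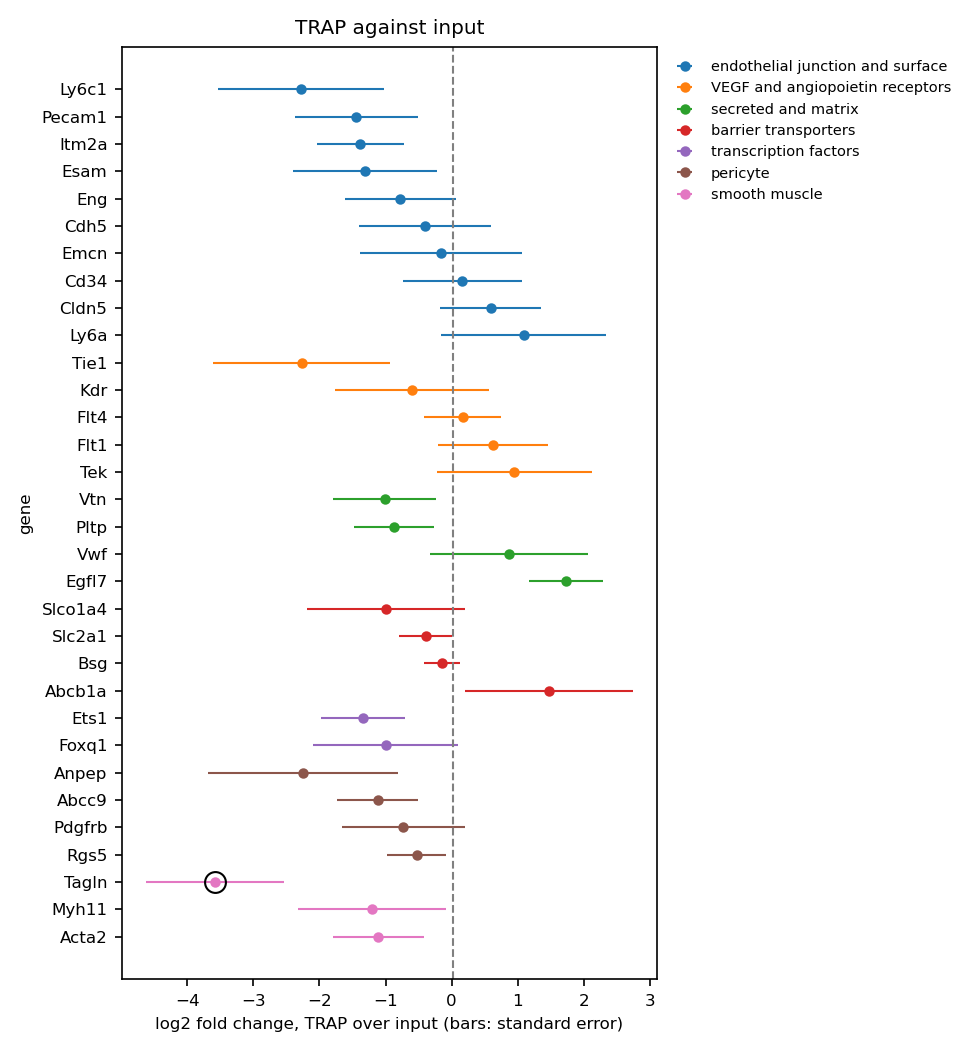
Log2 fold change of TRAP over input (horizontal axis, bars show the standard error) for the 32 vascular genes tested (vertical axis, coloured by role), with a dashed line at the median of all genes tested (0.02). The circled point is Tagln at −3.58, the 1 gene past the threshold, and Egfl7 at 1.73 is the highest point.

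Summed over 13 endothelial markers the level was 62.8 ± 50.8 CPM in TRAP (SD, n = 10) and 51.0 ± 21.4 CPM in input (SD, n = 8), and without Egfl7 43.3 ± 37.2 and 46.0 ± 19.1 CPM. Where genotypes are compared in such bulk samples, fewer cells of a type and less RNA per cell cannot be told apart. Lists of other cell types had medians of −1.17 for the oligodendrocyte lineage (7 of 12 fell), −1.03 for astrocytes (5 of 12 fell), −1.01 for microglia and macrophages (0 of 15 passed) and −1.73 for fibroblasts and meninges (2 of 15 fell). The vascular median of −0.75 was not tested against these. Blood cell genes were low, at 1.11 to 23.8 CPM in TRAP and 0.603 to 48.0 CPM in input summed over 15 genes.

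Genes around the 33 were taken from lists of the same pathways. Over all 14261 genes tested 2.41% rose in TRAP and 2.31% fell, and no list was tested against these shares. Of 25 ligand and receptor genes of the VEGF, angiopoietin, platelet-derived growth factor and TGF-beta families tested, 1 rose in TRAP: Vegfb, a VEGF family ligand gene, at 341 ± 148 CPM in TRAP and 173 ± 66.2 CPM in input (log2 fold change 1.07 ± 0.30; edgeR, adjusted p = 0.0356). Of 17 endothelial transcription factor genes 1 rose, Gata2, which is also a gene of the serotonin neuron lineage (4.16 ± 0.41), and 1 fell, Sox18 (−2.75 ± 0.72; edgeR, adjusted p = 0.0247). Sox18 had 3.57 ± 4.44 CPM in TRAP and 15.2 ± 8.41 CPM in input. Of 18 genes of Wnt and Norrin signalling, the pathway that induces the barrier, 1 fell, the feedback inhibitor gene Nkd1 (−1.69 ± 0.45; edgeR, adjusted p = 0.0271). Of 26 other mural and basement membrane genes 3 fell: Sparcl1, which astrocytes also make (−1.46 ± 0.28), Zic1, which neurons and meninges also make (−1.34 ± 0.31), and Cnn1, the smooth muscle calponin gene. Cnn1 had 2 counts, both in 1 of the 10 TRAP libraries, against 289 counts in 5 of the 8 input samples, a ratio of 0.00615 (exact 95% interval 0.000741 to 0.0224, counting error only; edgeR, adjusted p = 0.00599). Of 9 Notch genes and 34 other barrier genes 0 passed. The smallest p-values among the Notch genes were those of Notch3, a mural cell receptor gene (−1.81 ± 0.60; edgeR, adjusted p = 0.0824), and Jag1, a ligand gene (−2.42 ± 0.96; edgeR, adjusted p = 0.153). Among the barrier genes they were those of Slc3a2, an amino acid transporter subunit gene (−1.21 ± 0.38; edgeR, adjusted p = 0.0652), and Lrp1, an endocytic receptor gene (−0.65 ± 0.23; edgeR, adjusted p = 0.0957).

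KO TRAP was set against WT TRAP to ask whether loss of Celf6 goes with other RNA on serotonin cell ribosomes. Of the 33 genes 21 passed the filter on low counts, and 0 differed by edgeR, as did 0.0% of 12204 genes. At an unadjusted p under 0.05 there were 2 of the 21, against 3.73% of all genes, and DESeq2 called 9 genes (0.0528%), none of them among the 33. Of the 21 values 17 were below 0, with a median of −0.53, against 48.0% and 0.02 for all genes. The median was −0.26 without WT TRAP 4 and −1.04 without KO TRAP 3, and in mean log2 CPM −0.26 within run 1 (12 of 21 below 0) and −1.24 within run 2 (18 of 21 below 0), which holds 2 libraries of each group.

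Egfl7 had 11.6, 14.4, 8.4, 3.39 and 5.34 CPM in KO TRAP 1 to 5, against 9.98, 16.6, 14.5, 48.1 and 62.5 CPM in WT TRAP 1 to 5. The 3 libraries of run 1 overlapped between genotypes, and in run 2 both WT libraries lay far above both KO libraries. The log2 fold change was −1.54 ± 0.70 (edgeR, adjusted p = 1.0), with −0.25 in run 1 and −3.57 in run 2 in mean log2 CPM. Pdgfrb had 1.31, 6.21, 3.75, 0 and 0 CPM in KO TRAP, against 4.04, 26.2, 0.532, 5.75 and 3.8 CPM in WT TRAP. WT TRAP 2 alone was high, and the log2 fold change was −2.75 ± 1.29 (edgeR, adjusted p = 1.0), with −0.40 in run 1 and −3.78 in run 2.

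Acta2 had 4.86, 1.14, 0.6, 1.7 and 1.07 CPM in KO TRAP, against 8.31, 1.74, 10.3, 3.83 and 8.56 CPM in WT TRAP. Of the 5 KO libraries 4 lay below every WT library, and the log2 fold change was −1.83 ± 0.97 (edgeR, adjusted p = 1.0), with −1.56 and −1.83 within runs 1 and 2. Bsg had 123, 173, 475, 158 and 335 CPM in KO TRAP, against 256, 362, 274, 692 and 425 CPM in WT TRAP (−0.61 ± 0.37). Its groups overlapped through KO TRAP 3 and 5. Vwf was at 0 in 2 KO libraries and 1 WT library, and the 2 highest values were 9.27 CPM in WT TRAP 5 and 7.13 CPM in WT TRAP 1 (−2.39 ± 1.46).

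Tagln was the clearest case by library. Its counts were 0, 0, 0, 1 and 0 in KO TRAP 1 to 5, against 9, 7, 10, 15 and 12 in WT TRAP 1 to 5. All 5 KO libraries lay below all 5 WT libraries, which was so for 0.356% of the 18828 genes with a count in these libraries and for no other of the 33. In either direction the genotypes did not overlap for 0.568% of those genes. The ratio of KO to WT was 0.0171 (exact 95% interval 0.000424 to 0.0992, counting error only). The gene did not pass the filter on low counts. Without the filter the log2 fold change was −5.41 ± 2.12 (edgeR, adjusted p = 0.769), and by DESeq2 −5.41 ± 1.70 (adjusted p = 0.324), so it passed neither. Tagln shares 5.99% of its exonic bases with another gene. It lies at chr9:45929628-45936058 (mm10), and Celf6 is on chromosome 9 as well. Of the 33 genes Ets1 and Esam are on chromosome 9 too. The part of DNA inherited together with the KO allele in the values of these genes was not tested.

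Summed over the 3 smooth muscle genes the level was 4.86, 1.14, 0.6, 4.15 and 1.07 CPM in KO TRAP, against 11.9, 5.84, 12.2, 9.58 and 12.1 CPM in WT TRAP. The genotypes did not overlap in this sum, and Myh11 was seen in 1 of 5 KO libraries, against 5 of 5 WT libraries. Tagln is part of the sum, and without Tagln the genotypes overlapped. KO TRAP 1 then had 4.86 CPM, all of Acta2, and WT TRAP 2 had 1.74 CPM of Acta2 and 3.0 CPM of Myh11. How often such sums do not overlap, or a gene is seen as Myh11 was, was not counted over all genes. In input the sum of the 3 genes overlapped, at 5.12 to 33.8 CPM in KO and 9.04 to 25.1 CPM in WT. The summed markers of fibroblasts and meninges were 69.6 to 334 CPM in KO TRAP, against 140 to 756 CPM in WT TRAP, and those of ependyma and choroid plexus were 35.3 to 325 CPM, against 36.9 to 1861.4 CPM. The part of these cells in the vascular values was not tested. The 4 pericyte genes summed to 30.6 ± 19.1 CPM in KO TRAP and 30.2 ± 19.6 CPM in WT TRAP (SD, n = 5 each).

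The 13 endothelial markers summed to 46.8, 43.3, 56.8, 35.4 and 26.7 CPM in KO TRAP, against 39.2, 26.5, 55.5, 192 and 105 CPM in WT TRAP. WT TRAP 4 and WT TRAP 5 were above every KO library and the other 3 WT libraries were within the KO range or just below it. Without Egfl7 WT TRAP 4 stood at 144 CPM, against 21.4 to 48.4 CPM in KO TRAP. WT TRAP 5 then stood at 42.5 CPM, within the KO range. WT TRAP 4 and WT TRAP 5 were both high in some other cell types, and not in all. Oligodendrocyte lineage markers summed to 7034.8 and 7572.5 CPM in WT TRAP 4 and 5, against 2419.6 to 6165.2 CPM in KO TRAP. The other WT TRAP libraries had 1676.1 to 3256.5 CPM of them. Microglia and macrophage markers summed to 137 and 148 CPM in WT TRAP 4 and 5, with 39.3 to 59.4 CPM in the other WT TRAP libraries, against 42.8 to 64.7 CPM in KO TRAP. Astrocyte markers summed to 1335.4 and 1050.4 CPM there, against 890 to 1423.1 CPM in KO TRAP. Mural markers summed to 43.1 and 36.6 CPM there, against 11.7 to 60.7 CPM in KO TRAP. For fibroblasts and meninges WT TRAP 1, 4 and 5 had 633, 756 and 462 CPM, and for ependyma and choroid plexus 1487.2, 1861.4 and 359 CPM. Serotonin neuron markers were lowest of all TRAP libraries in WT TRAP 5, at 4053.5 CPM, while WT TRAP 4 had 6432.0 CPM. The part of these differences in the vascular values was not tested. In WT TRAP 4 Emcn stood at 23.5 CPM, Flt1 at 26.1, Eng at 21.8 and Cdh5 at 18.9 CPM, and 0 of the 33 genes were at 0. Cldn5 did not share this pattern: it was highest in KO TRAP 1 (14.4 CPM) and KO TRAP 3 (13.5 CPM), against 8.38 CPM in WT TRAP 4. The remaining genes tested had log2 fold changes of −2.13 (Cdh5) to 0.92 (Cldn5). The 12 genes not tested for low counts were Abcb1a, Anpep, Emcn, Esam, Foxq1, Ly6a, Ly6c1, Myh11, Pecam1, Sox17, Tagln and Tie1.

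**Figure D4:**
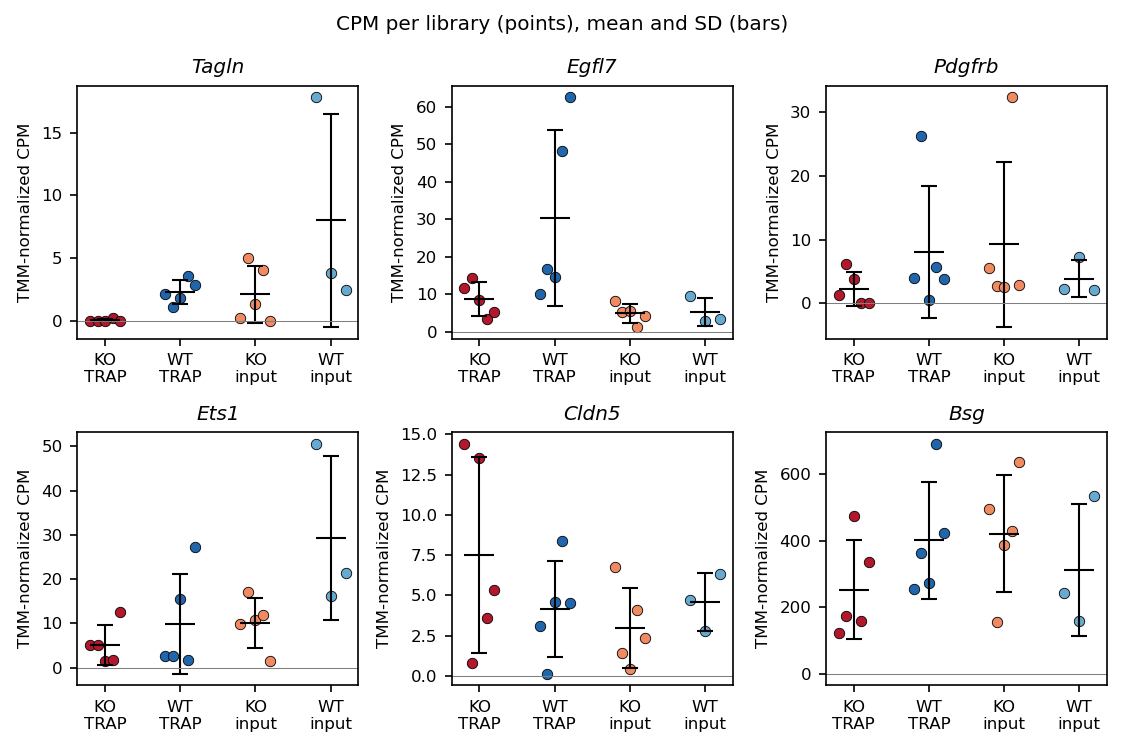
CPM in each library (points) with the mean and SD (bars) for 6 vascular genes in KO TRAP, WT TRAP, KO input and WT input. The 5 KO TRAP libraries lie at 0 to 0.188 CPM for Tagln, below the 5 WT TRAP libraries, and Egfl7 reaches 48.1 and 62.5 CPM in 2 WT TRAP libraries.

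KO input was set against WT input to ask the same of the whole tissue. Of the 33 genes 27 were tested and 0 differed by edgeR, as did 0.0% of 13036 genes. At an unadjusted p under 0.05 there was 1 of the 27, against 2.88% of all genes, and DESeq2 called 4 genes (0.0217%), none of them among the 33. The median was −0.16, with 15 of the 27 below 0, against 0.02 and 48.7% for all genes. None of the 33 had genotypes that did not overlap, while 1.9% of the 18605 genes with a count did. Ets1 had 9.78, 17.1, 10.7, 12 and 1.47 CPM in KO input 1 to 5, against 50.5, 16.1 and 21.4 CPM in WT input 1, 2/3 and 5. Of the 5 KO samples 4 lay below every WT sample, and the log2 fold change was −1.50 ± 0.68 (edgeR, adjusted p = 1.0), with −1.21 and −2.19 in runs 1 and 2.

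Foxq1 had 2.02, 0.875, 25.2, 22.0 and 0.588 CPM in KO input, against 1.92, 4.54 and 0.904 CPM in WT input. KO input 3 and 4 were high and the rest overlapped (2.10 ± 1.39). Bsg had 495, 156, 388, 431 and 639 CPM in KO input, against 242, 158 and 535 CPM in WT input (0.49 ± 0.34). Its within-run differences were 0.67 and −0.03. Abcc9 had 6.75, 10.5, 6.83, 8.39 and 14.1 CPM in KO input, against 16.6, 9.07 and 28.9 CPM in WT input (−0.93 ± 0.66). Esam, an endothelial adhesion molecule gene, had 8.43, 2.92, 3.41, 3.11 and 10.9 CPM in KO input, against 0.699, 4.45 and 0 CPM in WT input (1.90 ± 1.48). All these groups overlapped, and none passed (edgeR, adjusted p = 1.0 each). Tagln had 0.169, 4.96, 1.28, 4.07 and 0 CPM in KO input, against 17.8, 3.78 and 2.41 CPM in WT input (−1.70 ± 1.42). The other 21 genes tested ranged from −2.39 (Emcn) to 0.85 (Cdh5 and Kdr), and Abcb1a, Ly6a, Ly6c1, Myh11, Sox17 and Vwf were not tested for low counts. The summed markers of fibroblasts and meninges were 528 to 1106.6 CPM in KO input and 1302.0 to 1608.3 CPM in WT input, and their part in these values was not tested.

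**Figure D5:**
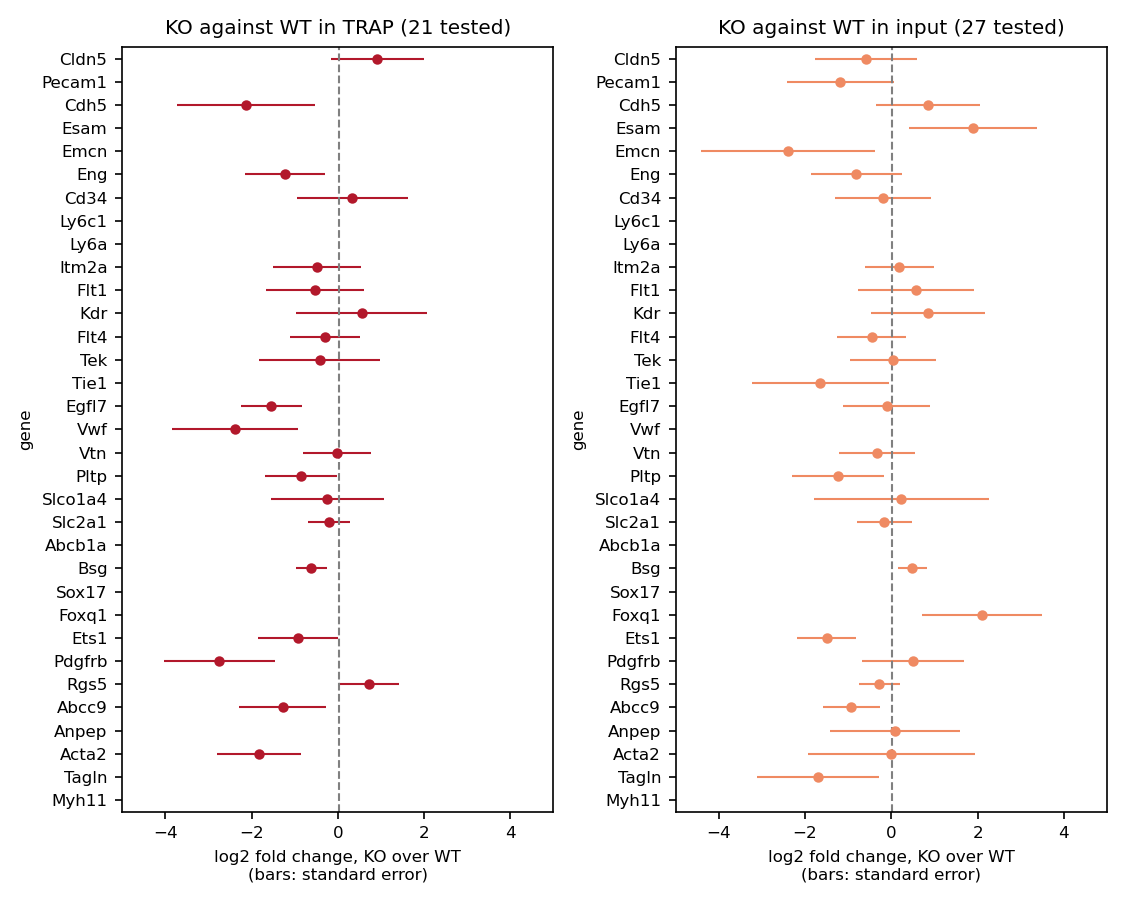
Log2 fold change of KO over WT (horizontal axes, bars show the standard error) in TRAP (left, 21 genes tested) and in input (right, 27 genes tested), with dashed lines at the median of all genes tested (0.02 in each). In TRAP 17 of the 21 points lie below 0, and a gene with no point was not tested.

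The genotype difference in TRAP was then set against that in input in 1 model. Of 32 vascular genes 0 differed by edgeR, as did 0.0% of 14261 genes, with 0 of the 32 against 3.88% of all genes at an unadjusted p under 0.05, and DESeq2 called 4 genes (0.0207%), none of them vascular. Of the 32 values 20 lay below 0, with a median of −0.41, against 49.9% of all genes. Within run 1 the median in mean log2 CPM was 0.30, with 17 of 32 above 0, and within run 2 −1.04, with 20 of 32 below 0. The smallest p-value was that of Bsg, at −1.04 ± 0.55 (edgeR, adjusted p = 1.0), with −1.11 and −1.21 within runs 1 and 2. Then came Pdgfrb (−3.65 ± 2.01), Tagln (−3.24 ± 1.90), Cdh5 (−3.64 ± 2.15) and Egfl7 (−1.81 ± 1.09). The genotype differences of Tagln in TRAP and in input, and the TRAP against input values above, share libraries and are not separate evidence. In the pathway lists 0 genes passed for either genotype comparison. In TRAP the smallest p-values were those of Cgn, the gene of the tight junction protein cingulin, at a positive value (2.35 ± 0.96), and Notch4, an endothelial Notch receptor gene (−2.45 ± 1.12). In input they were those of Foxo1, a forkhead factor gene (−1.16 ± 0.44), and Ednra, an endothelin receptor gene of smooth muscle, at 2.98 ± 1.15 in input and −2.25 ± 1.16 in TRAP. None of these passed (edgeR, adjusted p = 1.0 each).

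Splicing could be compared for 1 of the 33 genes, Bsg, which carries the authors' mark as a target of CELF6 crosslinking (in an intron) in the authors' deposited table. The measure was the percent spliced in (PSI), here a fraction of 0 to 1 for 1 of 2 isoforms. The sources used here do not state which isoform of an intron retention or 3′ splice site event a PSI of 1 stands for. At the intron retention event at chr10:79710638-79710920 (mm10) PSI was 0.9804 ± 0.0118 in KO TRAP and 0.9843 ± 0.0112 in WT TRAP (SD, n = 5 each; limma on log2(PSI/(1−PSI)), adjusted p = 0.915). In input it was 0.9868 ± 0.0051 in KO (n = 5) and 0.9811 ± 0.0054 in WT (n = 3; limma, adjusted p = 0.958). At the alternative 3′ splice site event at chr10:79710260-79710920, which overlaps the intron event, PSI was 0.0464 ± 0.0274 in KO TRAP and 0.0567 ± 0.0180 in WT TRAP (limma, adjusted p = 0.896). In input the same event stood at 0.052, 0.098, 0.120, 0.060 and 0.056 in KO 1 to 5, against 0.043, 0.063 and 0.042 in WT 1, 2/3 and 5. The genotypes overlapped (limma, adjusted p = 0.958), and 0.0% of the 1154 input and 1861 TRAP splicing events passed. Events of Ly6c1, Egfl7, Slc2a1 and Slco1a4 and a UTR event of Bsg had values in too few libraries for a test.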

How the data were processed

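Counts per gene were used as deposited, made with featureCounts 1.4.6-p5 on mm10 without strand and without multi-mapping reads, per the file headers. Trimmomatic and STAR were used per the submitters' processing notes, with versions not given in the sources used here. PSI fractions in the tables the authors deposited come from MISO, limited to events with a credible interval of 0.20 or less, per the series' design text. Left out were 4 repeat runs of replicate 3 and WT input 4, labelled an outlier (325072 counts).

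Fits used R 4.3.3 and edgeR 4.0.16 (TMM factors and filterByExpr, then the quasi-likelihood F test with the sequencing run as a covariate, Benjamini-Hochberg adjustment over all genes tested, threshold 0.05), with SE as the log2 fold change over the root of F. TRAP against input was the mean of the KO and WT differences. PSI, held between 0.01 and 0.99, was fitted with limma 3.58.1 where 3 libraries of each genotype had a value. CPM are TMM-normalized, log2 CPM have a prior count of 2, and DESeq2 1.42.0 was an alternative. Exact permutation tests were two-sided and run for Tagln and Egfl7 only, which were picked from these same libraries. They split the libraries without regard to genotype, run or brain. The scripts were tested on simulated data.

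Input and TRAP of equal number are taken to come from the same brain, as the study design implies. WT 5 and KO 1 go against this. WT TRAP 5 held 0.502 CPM of Xist and 75.3 CPM of Y-linked RNA, and WT input 5 36.3 and 9.73 CPM. KO TRAP 1 held 63.2 CPM of Xist and 25.6 CPM of Y-linked RNA, and KO input 1 103 and 0.502 CPM. Over deviations from group means, same-numbered TRAP and input libraries had r of −0.186 to 0.037 (9 pairs), and other pairs −0.194 to 0.165 (31 pairs). Genes named were those past the threshold, the 5 smallest p in each comparison, the 8 highest per kb in input, and those at 0 in 5 or more libraries; from other lists those past the threshold, or with the 2 smallest p in TRAP against input; of the genotype comparisons, where 0 passed, only the 2 smallest p over all pathway lists in TRAP and in input are given. The genes, roles and lists were chosen with earlier results of these data known. Cldn5, Pecam1, Emcn, Eng, Cd34, Flt1, Kdr, Flt4, Tek and Slco1a4 were named to account for all 33.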

Additional observations from a re-analysis of the deposited data

Results flagged for a closer look

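Of 99 gene and group combinations of 5 libraries, 8 had 1 library far from the other 4 by Dixon's test on log2 CPM. The test is set to flag about 1 in 20 by chance. This rate does not hold where 4 libraries tie at 0 counts, since any library with a count is then flagged. The number flagged is therefore not set against chance. High libraries in KO TRAP were library 5 for Ly6c1 (1.87 CPM), library 2 for Tie1 (0.49 CPM), library 3 for Foxq1 (11.5 CPM), and library 4 for both Tagln (0.188 CPM, 1 count) and Myh11 (2.26 CPM). In 4 of these 5 the other 4 libraries were at 0 counts, and for Foxq1 at 0 or 1 count. Anpep was high in WT TRAP 4 (1.44 CPM, the other 4 at 0) and Ly6a in KO input 5 (7.94 CPM), and Ets1 was low in KO input 5 (1.47 CPM).

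The WT input library labelled an outlier, which no comparison used, held 35 counts of Cldn5 among 325072, or 108 CPM of its total (exact 95% interval 75.0 to 150), against at most 6.19 CPM in the other WT input libraries. Acta2 stood at 30.8 CPM there (14.8 to 56.6), against at most 9.47 CPM. Cdh5, Rgs5, Slc2a1 and Tagln were at 0 counts in it, which allows up to 9.23 CPM, and the highest other WT input libraries held 7.87, 40.7, 55.5 and 17.9 CPM. Its Bsg level of 280 CPM lay within their range.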

How the results depend on the processing

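For TRAP against input 673 genes passed in all, and 1332 with DESeq2, 1065 with no filter on low counts, 233 in run 1 alone, 124 and 160 in the KO and the WT libraries alone, 346 to 831 when 1 library was left out (346 without WT input 5, 363 without WT input 1), and 337 without the 2 libraries that hold Xist and Y-linked RNA, a choice made after seeing the data. Of the vascular genes 2 (Tagln and Egfl7) passed with DESeq2 and with WT input 2 and 3 kept apart, 0 to 1 with 1 library left out, and 0 with the brain as a block (replicate block), in the KO libraries, the WT libraries, run 1 or run 2 alone, and without the Xist and Y-linked libraries. The median of the vascular genes was −0.98 to −0.47 with 1 library left out.

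For KO against WT in TRAP 9 genes passed with DESeq2 and 16 with no filter; the vascular median was −0.26 in run 1, −1.24 in run 2 and −1.04 to −0.26 with 1 library left out. In input 4 passed with DESeq2, 4 with no filter and 0 to 1 with 1 library left out (1 without KO input 3), and Bsg stood at −0.03 in run 2. For the difference between both, 4 passed with DESeq2, 3 with no filter and 29 in run 2 alone, where the vascular median was −1.55 (−0.17 in run 1 alone); it was −1.10 to 0.00 with 1 library left out. None of these calls was a vascular gene, and the causes were not tested. The replicate block changed no other call of a vascular gene: with it 540 genes passed for TRAP against input and 0 for KO against WT in TRAP and in input.

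PSI in input has no value without a WT library, since 2 are left, nor does the intron event with PSI held between 0.05 and 0.95, which all its values exceed. Vascular genes other than Bsg, Slc2a1 and Rgs5 rest on few counts, and the median SE was 0.93 for TRAP against input, 1.01 for KO against WT in TRAP and 1.18 in input on the log2 scale. Differences of over 4-fold went uncalled, among them those of Ly6c1 in TRAP against input and of Pdgfrb in KO against WT in TRAP.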
